A study of Mus musculus with 2 samples.

Results

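The 8 genes described here, Foxp3, Ikzf2, Ikzf4, Il10, Penk, Itgb8, Lrrc32 and Gpr83, belong to the program of regulatory T cells (Tregs). They were picked by gene symbol, with earlier results of these data known, and each matched exactly 1 of the 27998 genes in the count tables. The tables are scRNAseq counts of CD45+ leukocytes from subcutaneous B16 melanomas. The h219-LLG library came from mice treated with h219-LLG, a humanized antagonist antibody against human LAIR1 whose Fc part carries the LALA-PG mutation, and the control library came from mice treated with a control antibody. LAIR1 is an inhibitory receptor of leukocytes that binds collagen. All mice were C57BL/6 animals, 6 to 8 weeks old by the labels, that lacked mouse LAIR1 and carried a human LAIR1 transgene switched on in hematopoietic cells by Vav-cre, so both groups share that genotype. By the study's methods for this model, 500000 B16 cells were injected, antibody was given at 10 mg/kg every 4 days from day 5 for 3 doses, and the experiment ended at day 16. There was 1 library per treatment, and how many mice stand behind each is not stated in the sources used here. No test between treatments was therefore possible, and every interval below covers counting error only.

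Tregs are CD4 T cells that hold other immune cells in check, and they are known to gather in tumors, B16 melanoma included. Foxp3 is the transcription factor that sets their identity. Ikzf2 (Helios) and Ikzf4 (Eos) are zinc finger transcription factors of the Ikaros family, and Eos is known to act with Foxp3 in silencing genes. Il10 encodes the anti-inflammatory cytokine IL-10, and Penk encodes proenkephalin, the precursor of enkephalin opioid peptides. Lrrc32 encodes GARP, which holds latent TGF-beta on the Treg surface. Itgb8 encodes the beta chain of the integrin that, paired with the alpha V chain encoded by Itgav, frees active TGF-beta from it. Gpr83 is an orphan-type G protein-coupled receptor long used as a Treg marker in mice.

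In the GENCODE vM21 annotation of mm10, Ikzf2 lies at chr1:69531214-69687245 and Il10 at chr1:131019845-131024974. Penk lies at chr4:4133531-4138819, Lrrc32 at chr7:98489283-98502181, Gpr83 at chr9:14860210-14870789, Ikzf4 at chr10:128630843-128645991, Itgb8 at chr12:119158022-119238802 and Foxp3 at chrX:7573644-7595245. Penk, the gene with the lowest ratio between treatments below, carries its peptides as repeats. A search of its coding sequence in frame found 7 runs of 15 bases for an enkephalin pentapeptide, 6 for met-enkephalin and 1 for leu-enkephalin, all in exon 2 of 2, on the minus strand. They are shown because a Penk UMI reports an RNA that encodes all of these peptides at once. Each line gives 1 run in capitals with 6 bases on either side, 5′ to 3′, from chr4:4134328-4134354 for the first to chr4:4133842-4133868 for the last.
Penk copy 1: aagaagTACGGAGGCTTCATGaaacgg
Penk copy 2: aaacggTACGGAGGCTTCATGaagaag
Penk copy 3: aagaggTATGGCGGCTTCATGaagaag
Penk copy 4: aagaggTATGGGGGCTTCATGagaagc
Penk copy 5: aagcgcTACGGGGGCTTCATGagaagg
Penk copy 6: aagaggTATGGGGGCTTCCTGaagcgc
Penk copy 7: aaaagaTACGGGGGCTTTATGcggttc
The 7 runs use 6 different spellings, and the leu-enkephalin run is copy 6. The lower-case triplets on both sides are mostly lysine and arginine codons, the pairs at which prohormone convertases are known to cut the precursor.

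After the filter, 7433 of 8807 barcodes of the h219-LLG library were kept (median 5050 UMIs), and 5607 of 6133 of the control library (median 5796 UMIs). UMIs are unique molecular identifiers, 1 for each captured RNA molecule. The share of barcodes at or above 10% mitochondrial UMIs was 15.2% with h219-LLG and 8.17% with control. T cells, defined by at least 2 UMIs of Cd3d, Cd3e and Cd3g, were called Foxp3-positive with at least 1 Foxp3 UMI. This gave 91 Foxp3-positive T cells with h219-LLG (median 5369 UMIs) and 145 with control (median 7021 UMIs). The other CD4 T gate (Cd4 without Cd8a or Cd8b1) held 803 cells with h219-LLG and 732 with control, and the CD8 T gate held 1763 and 1065. T cells with at least 2 UMIs of B cell markers, of macrophage markers or of Siglech were set apart as mixed-lineage. Cells outside the T definition with at least 2 UMIs of both B cell and macrophage markers were added to them. Mixed-lineage cells were 7.28% of kept cells with h219-LLG and 4.89% with control. Their median depth of 12374 UMIs with h219-LLG and 15874.5 with control was above that of any T gate. The libraries shared 13 barcodes, none of them Foxp3-positive.

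Levels are given as CPM, the UMIs of a gene relative to all UMIs of the gate (counts per 1000000). In the Foxp3-positive gate, which required UMIs of Cd3d, Cd3e or Cd3g, 6 of 6 T markers were detected in both libraries at a sum of 1821 CPM with h219-LLG and 1990 CPM with control. The gate allowed a cell at most 1 UMI of the B list and at most 1 of the macrophage list, so their low sums are no check of it. The neutrophil, NK and melanoma markers, which it did not use, were near 0. The 3 macrophage and monocyte markers summed to 3 UMIs in the h219-LLG library and 9 in the control library (Csf1r at 0 in both), the 3 neutrophil markers to 2 and 5 (Csf3r at 0 in both), the 4 B markers to 12 and 11, the 2 NK markers to 3 and 9, and the 3 melanoma markers to 5 and 8. The 3 plasmacytoid dendritic markers summed to 78 and 171 UMIs, of which Bst2, present in every T gate, made up 73 and 161; Siglech was at 0 with h219-LLG. The 5 dendritic markers summed to 71 UMIs with h219-LLG and 60 with control. Of these, Fscn1 made up 64 UMIs, in 2 cells, with h219-LLG and 31 UMIs, in 3 cells, with control. Cd79b, a B cell receptor chain, was in 11.0% of Foxp3-positive cells and 2.24% of other CD4 T cells with h219-LLG, and in 4.83% and 1.09% with control. Its part in the results below was not tested. Cd4 alone was seen in 37 of the Foxp3-positive cells with h219-LLG and in 83 with control, Cd8a or Cd8b1 alone in 11 and 6, both in 7 and 18, and neither in 36 and 38. The gate is therefore named by Foxp3 and not by CD4.

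Foxp3-positive cells made up a smaller share of the CD4 T cells with h219-LLG. Of the Cd4-positive, Cd8-negative T cells, 37 of 840 (4.40%, exact binomial interval 3.12 to 6.02) had a Foxp3 UMI with h219-LLG, against 83 of 815 (10.2%, 8.19 to 12.5) with control, a ratio of 0.433 (0.297 to 0.629). Over all non-mixed T cells the share was 2.63% with h219-LLG and 5.46% with control, a ratio of 0.481 (0.372 to 0.622). With at least 2 Foxp3 UMIs it was 3.10% and 7.48% of CD4 T cells, a ratio of 0.414 (0.264 to 0.648). B cells, which should lack Foxp3, had a UMI of it in 0.466% of cells with h219-LLG (median 3510 UMIs) and 0.402% with control (median 4257 UMIs). Both T cell shares were above that background. The 2 libraries differed in depth: the median of the other CD4 T cells was 5519 UMIs with h219-LLG and 6584 with control. When every cell was thinned to 2000 UMIs, 8 of 388 CD4 T cells had a Foxp3 UMI with h219-LLG and 25 of 328 with control, a ratio of 0.271 (0.124 to 0.592).

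A gate that used none of the 8 genes also held a smaller share of the CD4 T cells with h219-LLG. CD4 T cells with UMIs of at least 3 of the receptor genes Il2ra, Ctla4, Tnfrsf18, Tnfrsf4, Icos and Tigit were 84 of 840 (10.0%, 8.05 to 12.2) with h219-LLG and 178 of 815 (21.8%, 19.0 to 24.8) with control, a ratio of 0.458 (0.360 to 0.583). Foxp3 was detected in 31.0% of these cells (21.3 to 42.0) with h219-LLG and in 40.4% (33.2 to 48.0) with control, and in only 1.46% and 1.73% of the CD4 T cells outside the gate. Within it the Foxp3 level was 119 CPM with h219-LLG and 164 CPM with control, a ratio of 0.726 (0.562 to 0.931). Deeper cells pass this gate more readily, and the control library was deeper. The share of this gate was not recomputed on thinned cells, so the part of depth in it was not tested.

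**Figure D1:**
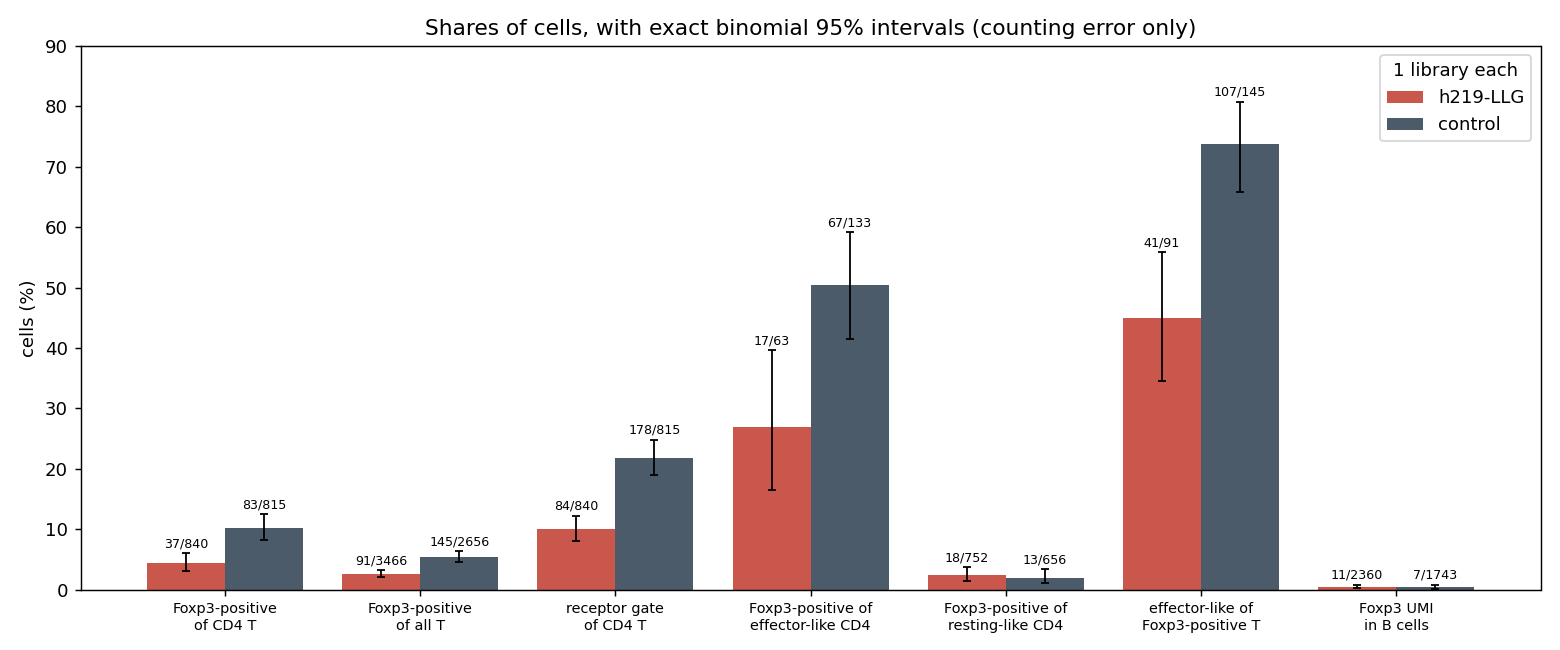
Share of cells in percent (vertical axis) for 7 definitions (horizontal axis), with h219-LLG in red and control in dark blue; bars are single libraries, error bars are exact binomial 95% intervals of counting error and the labels give cells over total. Foxp3-positive cells were 27.0% of effector-like CD4 T cells with h219-LLG and 50.4% with control, but 2.39% and 1.98% of resting-like ones.

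The Foxp3-positive cells also differed in state between the libraries, and so did the other CD4 T cells. A cell was called effector-like when its UMIs of Tnfrsf9, Ccr8, Klrg1, Il1rl1, Icos and Tnfrsf4 outnumbered those of a panel of homing and quiescence genes that includes Ccr7, Lef1 and Tcf7, and resting-like in the opposite case. This cut divides a continuous range, and 14 of 91 cells in the h219-LLG library and 15 of 145 in the control library lay within 1 UMI of it. Effector-like cells were 41 of 91 (45.1%, 34.6 to 55.8) with h219-LLG and 107 of 145 (73.8%, 65.8 to 80.7) with control. Resting-like cells were 46 of 91 (50.5%, 39.9 to 61.2) with h219-LLG and 32 of 145 (22.1%, 15.6 to 29.7) with control. Among other CD4 T cells, effector-like cells were 46 of 803 (5.73%, 4.22 to 7.57) with h219-LLG and 66 of 732 (9.02%, 7.04 to 11.3) with control. The h219-LLG over control ratio of the effector-like share was 0.611 (0.477 to 0.781) in Foxp3-positive cells and 0.635 (0.442 to 0.913) in other CD4 T cells. Seen from the CD4 T cells, Foxp3-positive cells were 17 of 63 effector-like cells (27.0%, 16.6 to 39.7) with h219-LLG and 67 of 133 (50.4%, 41.6 to 59.2) with control. Among resting-like CD4 T cells they were 18 of 752 (2.39%, 1.42 to 3.76) with h219-LLG and 13 of 656 (1.98%, 1.06 to 3.36) with control, intervals that overlap widely. Between states within a library, 2 of 4 measured members (Ikzf2 and Itgb8) were at least 2-fold higher in effector-like cells with h219-LLG, against 15.8% of all genes, and 2 of 6 (Il10 and Penk) with control, against 14.7%. None was 2-fold lower, against 4.92% and 3.56%. Of the 224 effector-like Penk UMIs with control, 171 were in 1 cell, and the 17 resting-like ones were in 1 cell. The Itgb8 ratio with h219-LLG was 2.73 (0.942 to 9.59), an interval that includes 1. Since state moves with the library, the ratios of the members are given below for all Foxp3-positive cells and for each state.

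In both libraries most of the other 7 genes were enriched in Foxp3-positive T cells. A gene was counted as measured in a comparison with at least 20 UMIs over its 2 sides, and as enriched when its CPM was at least 2-fold higher. Of the 5 other members measured with h219-LLG, 5 were enriched over other CD4 T cells, against 13.2% of all genes measured. With control, 5 of 7 were enriched, against 15.1% of all genes measured. The exceptions with control were Ikzf4 and Gpr83. Rare members passed the minimum through the Foxp3-positive side. With h219-LLG these were Itgb8 (20 UMIs against 1) and Lrrc32 (24 against 7). With control they were Penk (241 against 5), Itgb8 (51 against 9) and Lrrc32 (86 against 10). For such genes the minimum favors a high ratio, so these counts are a description. None was 2-fold lower, against 4.86% of all genes with h219-LLG and 4.34% with control. The median log2 ratio of the measured members was 4.21 with h219-LLG and 4.06 with control, where the median of all genes was 0.28 in each library. Of the 7 genes, 7 had their highest level of all named gates in the Foxp3-positive gate with h219-LLG, and 6 with control, where Gpr83 was marginally higher in other CD4 T cells.

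**Figure D2:**
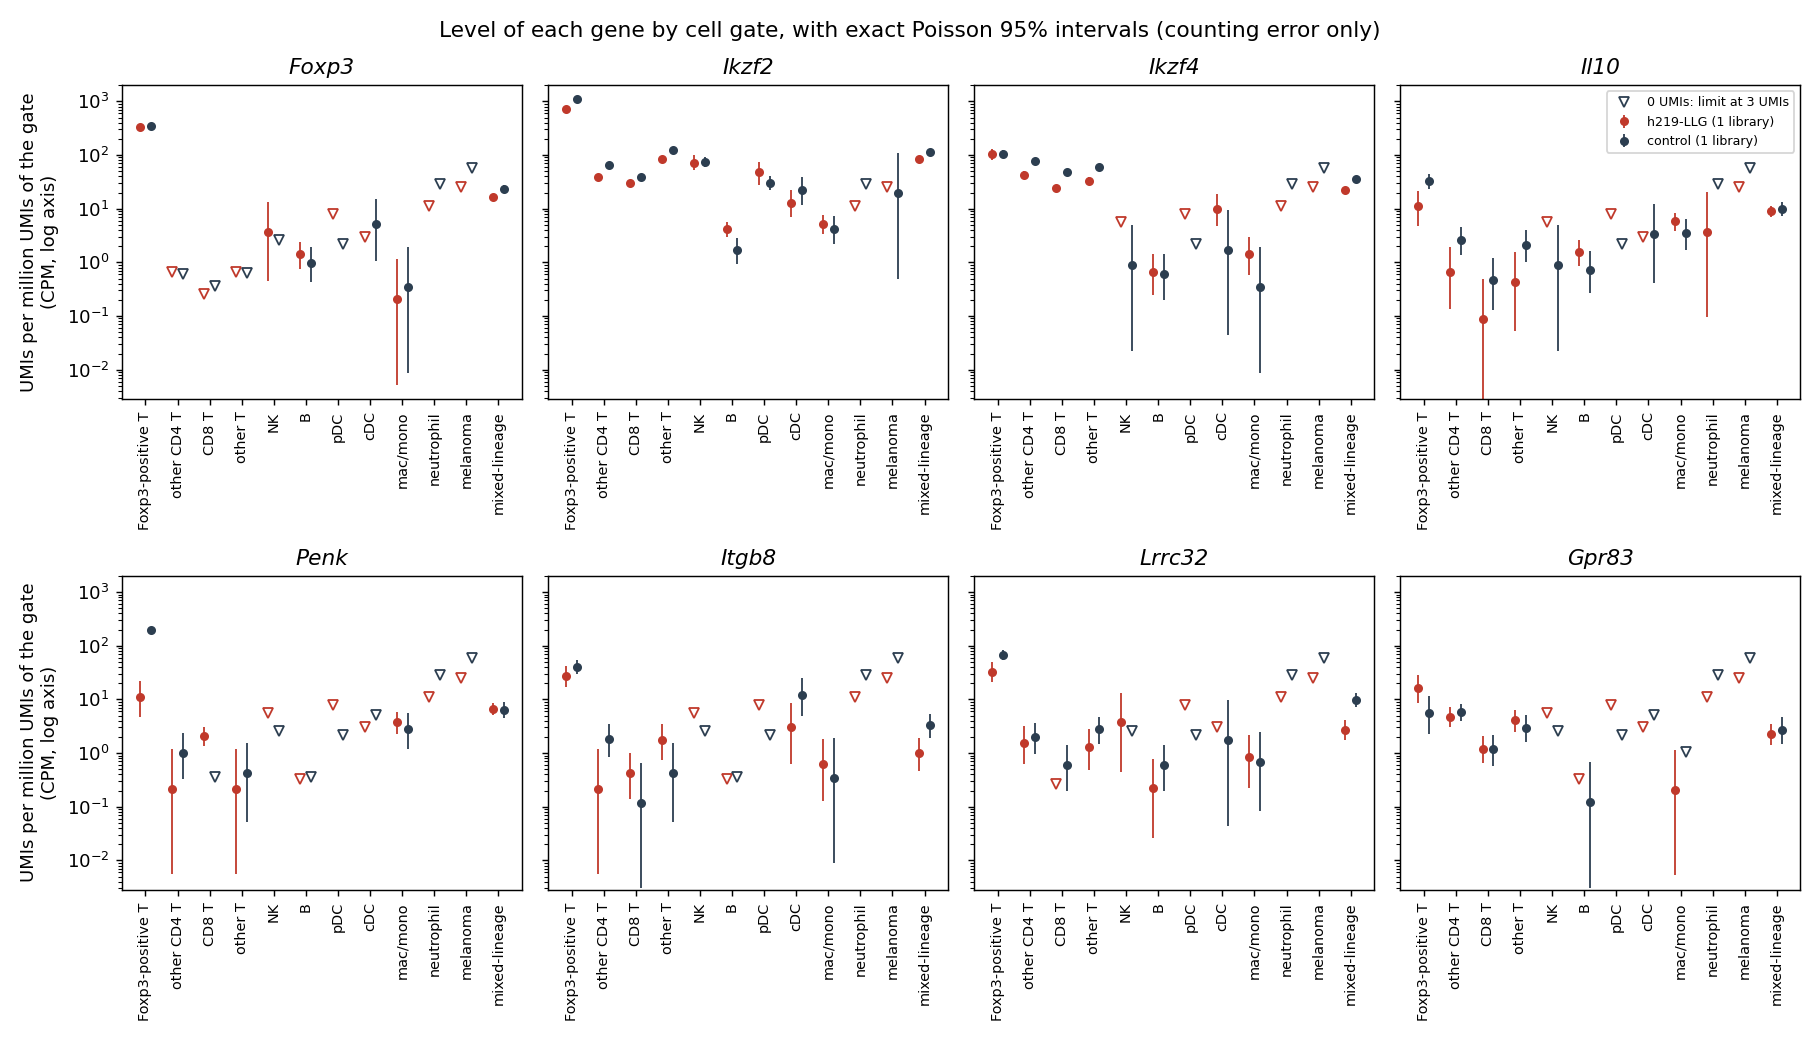
CPM of each of the 8 genes on a log axis (vertical) in 12 cell gates (horizontal), with h219-LLG in red to the left of control in dark blue; points are single libraries with exact Poisson 95% intervals, and open triangles mark 0 UMIs, drawn at the level of 3 UMIs. Foxp3 is 0 in the other T gates because the gate took every T cell with a Foxp3 UMI; Ikzf2 is the most abundant of the 8 in Foxp3-positive cells, at 720.1 CPM with h219-LLG and 1098 CPM with control.

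Foxp3 itself was used to choose the cells, so its level among them is a description. It stood at 334 CPM (243 UMIs) with h219-LLG and 345 CPM (431 UMIs) with control, with a median of 2 UMIs and a maximum of 12 UMIs per cell in each library. A single Foxp3 UMI defined 32 of the 91 cells with h219-LLG and 48 of the 145 with control, and 37 and 65 cells had 3 or more. Outside the T gates Foxp3 had 13 UMIs in 2360 B cells with h219-LLG and 8 UMIs in 1743 B cells with control. The mixed-lineage cells held 142 Foxp3 UMIs, in 48 of 541 cells, with h219-LLG and 120 UMIs, in 39 of 274 cells, with control. They were left out of all T gates. Over the 12 gates with at least 30 cells in each library, mixed-lineage and ungated cells included, 24 points that share their libraries and depth, the gene with the most similar log2 level to Foxp3 was another member, Lrrc32 (Pearson r 0.914, of 12436 genes compared). Next came Npnt (0.870) and Tnfrsf8 (0.846), which encodes the receptor CD30. Lrrc32 in turn was most like Foxp3, then Ppp1r3fos (0.908) and Apol9b (0.895). The gates were themselves built on Foxp3, which removed it from the other T gates. Any gene high in the Foxp3-positive gate is thereby made like Foxp3, so these likenesses are a description and no separate support.

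Ikzf2 was detected in more Foxp3-positive cells than any other of the 7 genes, and its level was lower with h219-LLG. It had a UMI in 69 of 91 cells (75.8%, 65.7 to 84.2) with h219-LLG and in 129 of 145 (89.0%, 82.7 to 93.6) with control. Thinned to 2000 UMIs, the shares were 66.7% with h219-LLG and 76.9% with control, a ratio of 0.867 (0.729 to 1.03) with an interval that includes 1. Among the cells that had it, the median was 5 UMIs with h219-LLG and 9 UMIs with control, and the highest cell had 32 and 43. B cells had an Ikzf2 UMI in 0.890% and 0.574% of cells. The level of 720.1 CPM (659.7 to 784) with h219-LLG stood against 1098 CPM (1040.3 to 1157) with control, a ratio of 0.656 (0.592 to 0.726). The intervals of the 2 libraries did not overlap. In effector-like cells Ikzf2 was 968 CPM with h219-LLG and 1254 CPM with control (ratio 0.772, 0.684 to 0.870), and in resting-like cells it was 388 CPM and 635 CPM (ratio 0.611, 0.483 to 0.771). Within each library Ikzf2 was higher in effector-like than in resting-like Foxp3-positive cells, 2.50-fold (2.04 to 3.07) with h219-LLG and 1.98-fold (1.68 to 2.33) with control. The genes most like it over the gates were Acsbg1 (r 0.854), Ndfip1 (0.851) and Spock2 (0.847).

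The lower Ikzf2 level with h219-LLG was seen in the other T gates too. In other CD4 T cells it was 38.9 CPM with h219-LLG and 65.6 CPM with control (ratio 0.592, 0.491 to 0.713). In CD8 T cells it was 29.9 CPM and 38.4 CPM (ratio 0.778, 0.667 to 0.909), and in the T cells of neither gate 83.9 CPM and 126 CPM (ratio 0.664, 0.583 to 0.757). NK cells, which also express Helios, had 72.5 CPM with h219-LLG and 73.6 CPM with control. Enrichment in Foxp3-positive over other CD4 T cells was of like size in both libraries, 18.5-fold (15.6 to 22.1) with h219-LLG and 16.7-fold (14.8 to 18.9) with control.

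Ikzf4 had a ratio near 1 in Foxp3-positive cells, though not under every setting. Its level was 104 CPM (76 UMIs in 35 cells) with h219-LLG and 105 CPM (131 UMIs in 61 cells) with control, a ratio of 0.997 (0.742 to 1.33). With mixed-lineage cells kept in the gate the ratio was 0.730 (0.582 to 0.914), and with the gates rebuilt on cells thinned to 2000 UMIs it was 0.317 (0.0794 to 0.934), from 4 UMIs with h219-LLG and 22 with control. In the T cells with no Foxp3 UMI it was lower with h219-LLG. Other CD4 T cells had 43.0 CPM with h219-LLG and 75.8 CPM with control (ratio 0.567, 0.475 to 0.675), CD8 T cells had 24.6 CPM and 47.6 CPM (ratio 0.516, 0.442 to 0.603), and the remaining T cells had 32.9 CPM and 58.8 CPM (ratio 0.560, 0.456 to 0.685). The interval in Foxp3-positive cells lies above that of other CD4 T cells, but the difference between gates was not tested. Ikzf4 was lower in effector-like than in resting-like Foxp3-positive cells, 78.0 CPM against 127 CPM with h219-LLG (ratio 0.613, 0.369 to 1.00) and 90.4 CPM against 154 CPM with control (ratio 0.587, 0.401 to 0.870). Within each state the h219-LLG over control ratio was below 1, 0.863 (0.546 to 1.33) in effector-like and 0.826 (0.527 to 1.30) in resting-like cells, with intervals that include 1. Ikzf4 in Foxp3-positive cells exceeded that in other CD4 T cells by 2.43-fold (1.84 to 3.18) with h219-LLG and 1.38-fold (1.12 to 1.69) with control. The genes most like it over the gates were Klk8 (r 0.917), BC021614 (0.916) and Cd3e (0.915), a chain of the T cell receptor complex.

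The remaining Ikaros family genes had ratios closer to 1 than Ikzf2. In Foxp3-positive cells the h219-LLG over control ratio was 1.34 (1.06 to 1.68) for Ikzf1 (Ikaros), 0.961 (0.728 to 1.26) for Ikzf3 (Aiolos) and 1.04 (0.613 to 1.73) for Ikzf5 (Pegasus). None of these 3 was past 2-fold.

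Of the 6 other members measured between the libraries in Foxp3-positive cells, 3 were at least 2-fold lower with h219-LLG (Il10, Penk and Lrrc32), against 5.04% of all 7404 genes measured. None was at least 2-fold higher, against 4.69% of all genes. All 6 ratios were below 1 and their median was -0.83 on the log2 scale, where the median of all genes was 0.03. The intervals of Ikzf4 (0.997, 0.742 to 1.33) and Itgb8 (0.674, 0.381 to 1.15) include 1. Il10 and Penk had 8 UMIs each with h219-LLG and passed the minimum through the control side, at 41 and 241 UMIs. For such genes the minimum favors a low ratio, so these counts are a description. In effector-like cells the same 3 genes were past 2-fold, against 6.72% of all genes (7.3% were as much higher, none of them a member), and the median was -0.73. There Il10 (7 UMIs with h219-LLG, 38 with control), Penk (2 and 224) and Lrrc32 (11 and 68) passed the minimum through the control side. In resting-like cells 2 of 4, Penk and Lrrc32, were 2-fold lower and none higher, against 4.67% of all genes in each direction. The resting-like Penk UMIs lay in 1 cell of each library, 6 with h219-LLG and 17 with control. The interval of the resting-like Lrrc32 ratio includes 1. Of the 3 members measured in other CD4 T cells (Ikzf2, Ikzf4 and Gpr83), none was 2-fold lower, against 2.27% of all genes, or higher, against 3.14%. Il10, Penk, Itgb8 and Lrrc32 had too few UMIs there to be measured. Their ratios were 0.250 (0.0458 to 0.911), 0.217 (0.00459 to 1.94), 0.121 (0.00275 to 0.870) and 0.760 (0.245 to 2.21), so the 2 gates are not compared on the same genes. In CD8 T cells 1 of 4, Penk, was 2-fold higher, against 4.09% of all genes, and none lower, against 1.65%. Penk passed the minimum there through the h219-LLG side, with 24 UMIs against 0. In the T cells of neither gate none of 3 was past 2-fold, against 4.35% higher and 1.61% lower. Gpr83, at 12 UMIs with h219-LLG and 7 with control, fell just under this minimum in Foxp3-positive cells. Its ratio went the other way, at 2.95 (1.07 to 8.83).

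**Figure D3:**
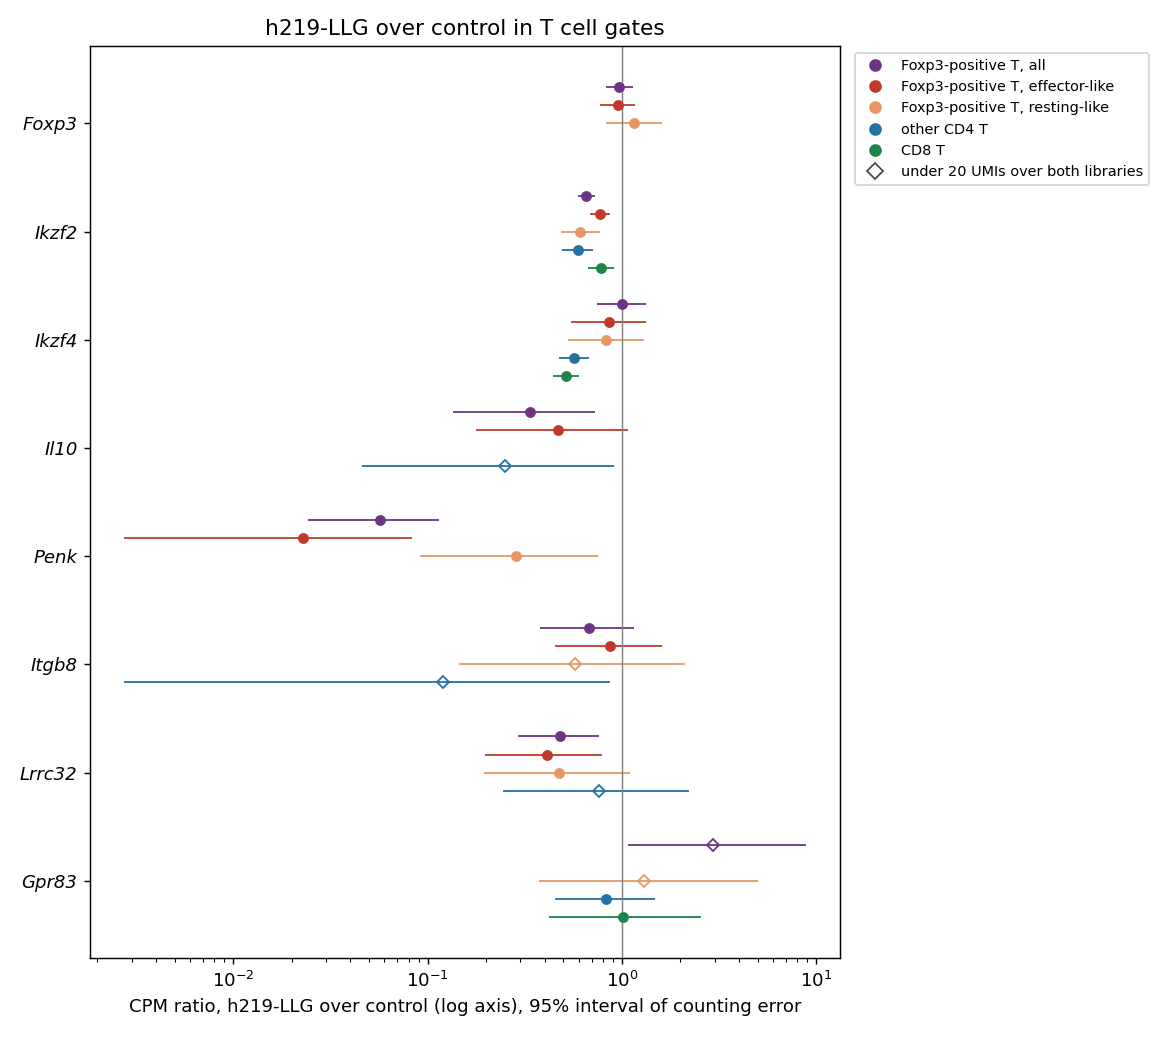
CPM of h219-LLG divided by CPM of control (horizontal, log axis) for the 8 genes (vertical) in 5 T cell groups, with 95% intervals of counting error; each point compares 1 library with 1 library, open diamonds have under 20 UMIs over both libraries, and points with under 7 UMIs or with 0 in a library are not drawn. Ikzf2 lies below 1 in all 5 groups, whereas Ikzf4 lies below 1 with an interval that excludes 1 only in other CD4 T and CD8 T cells.

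Il10 was rare in both libraries and rarer with h219-LLG. Its UMIs in the 4 positive Foxp3-positive cells of the h219-LLG library were 5, 1, 1 and 1. With control 18 cells had it, the highest with 8, 6 and 4 UMIs and 9 of them with a single UMI. The sum was 8 UMIs (11.0 CPM, 4.75 to 21.7) with h219-LLG and 41 UMIs (32.8 CPM) with control, a ratio of 0.335 (0.136 to 0.725). As a share of cells this was 4.40% (1.21 to 10.9) with h219-LLG and 12.4% with control, and B cells had an Il10 UMI in 0.297% and 0.229%. Thinned to 2000 UMIs, 1 of 87 and 7 of 143 Foxp3-positive cells kept an Il10 UMI, a ratio of shares of 0.235 (0.0294 to 1.88). Of the positive cells, 3 of 4 with h219-LLG and 16 of 18 with control were effector-like. Within effector-like cells the ratio was 0.471 (0.178 to 1.07), an interval that includes 1. In other CD4 T cells Il10 had 3 UMIs in the h219-LLG library and 13 in the control library (ratio 0.250, 0.0458 to 0.911).

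In macrophages and in B cells the Il10 ratio was above 1, with intervals that include 1. Macrophages and monocytes, a textbook source of IL-10, had 28 UMIs in 17 cells with h219-LLG and 10 UMIs in 5 cells with control, 5.84 CPM and 3.47 CPM (ratio 1.68, 0.793 to 3.88). B cells had 14 and 6 UMIs (ratio 2.10, 0.757 to 6.65). Conventional dendritic cells had 0 UMIs in the h219-LLG library and 2 in the control library, and NK cells had 0 and 1. Foxp3-positive cells thus held 5.88% of all Il10 UMIs with h219-LLG and 28.9% with control.

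Penk had the lowest ratio of the 8 genes, and its level rested on few cells. With h219-LLG 3 Foxp3-positive cells had 6, 1 and 1 UMIs. With control 13 cells had 171, 17, 17, 11, 10, 4, 2, 2, 2, 2, 1, 1 and 1 UMIs. A single control cell thus held 71.0% of the 241 control UMIs. The sums gave 11.0 CPM with h219-LLG and 193 CPM with control, a ratio of 0.0571 (0.0244 to 0.114). Without the highest cell of each library, 2 and 70 UMIs remained, a ratio of 0.0492 (0.00584 to 0.184). The h219-LLG cell with 6 Penk UMIs also had at least 2 UMIs of the dendritic markers, and without such cells 2 UMIs with h219-LLG stood against 241 with control (ratio 0.0136). As a share of cells, Penk was found in 3.30% (0.685 to 9.33) with h219-LLG and 8.97% with control, and after thinning in 1 of 87 and 8 of 143 cells (ratio 0.205, 0.0261 to 1.61). In B cells it had no UMI, where the limit of 3 counts allows UMI-positive cells at a share of up to 0.127% in the h219-LLG library and 0.172% in the control library. Before thinning, the shares of Foxp3-positive cells with Penk had a ratio of 0.368 (0.108 to 1.26), so the UMI sums differed by more than the shares of positive cells did. Of the positive cells, 2 of the 3 with h219-LLG and 12 of the 13 with control were effector-like.

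Penk was found outside Tregs in single cells. In CD8 T cells 4 cells of the h219-LLG library had 18, 4, 1 and 1 UMIs, and the control library had none. Set against a floor of 3 UMIs in the control gate, the level was 5.81-fold higher with h219-LLG. The counting interval of the ratio starts at 4.37. Cells of other T gates, macrophages and mixed-lineage cells made up the rest, with 45 UMIs in 1 mixed-lineage cell with h219-LLG. Of all Penk UMIs, Foxp3-positive cells held 7.27% with h219-LLG and 83.4% with control. The enzymes that cut the precursor and the opioid receptors (Pcsk1, Pcsk2, Cpe, Oprd1, Oprm1 and Oprk1) were at most 6 UMIs each in Foxp3-positive cells of either library, so 0 of 6 could be measured. Over the gates, Penk was most like Mt3 (r 0.869), Tff1 (0.856) and Il10 (0.829), and Il10 was most like Grhl1 (0.865), Gm15655 (0.831) and Penk.

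Of the genes around TGF-beta, Lrrc32 and the integrin chain Itgav had ratios whose intervals lay below 1, and Itgb8 did not. Lrrc32 had 24 UMIs in 16 of 91 cells (17.6%, 33.0 CPM) with h219-LLG, none above 4 UMIs, and 86 UMIs in 47 of 145 cells (32.4%, 68.7 CPM) with control, none above 5 UMIs. Thinned to 2000 UMIs, the shares of cells were 9.20% with h219-LLG and 10.5% with control, a ratio of 0.877 (0.388 to 1.98). The CPM ratio was 0.480 (0.292 to 0.762), and it was 0.414 (0.197 to 0.788) in effector-like and 0.475 (0.194 to 1.10) in resting-like cells. The effector-like over resting-like ratio of Lrrc32 was 0.999 (0.385 to 2.62) in the h219-LLG library and 1.15 (0.666 to 2.08) in the control library, so no difference by state was detectable at this depth. Mixed-lineage cells had 24 UMIs in the h219-LLG library and 50 in the control library, a ratio of 0.279 (0.164 to 0.462). With the gates rebuilt on cells thinned to 2000 UMIs, 7 UMIs with h219-LLG and 10 with control were left, a ratio of 1.22 (0.394 to 3.55), too few to read a direction. Enrichment over other CD4 T cells was 21.6-fold (9.02 to 59.3) with h219-LLG and 34.2-fold (17.7 to 73.8) with control.

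Itgb8 had 20 UMIs in 11 cells (27.5 CPM) with h219-LLG and 51 UMIs in 26 cells (40.8 CPM) with control. The ratio of 0.674 (0.381 to 1.15) has an interval that includes 1. In effector-like cells it was 0.872 (0.451 to 1.60), and in the receptor gate that used none of the 8 genes 0.362 (0.124 to 0.870). Thinned to 2000 UMIs the direction turned, with Itgb8 in 6 of 87 cells of the h219-LLG library and 6 of 143 of the control library, a ratio of shares of 1.64 (0.547 to 4.94). Foxp3-positive cells held 36.4% of all Itgb8 UMIs with h219-LLG and 57.3% with control, with 1 UMI in 803 other CD4 T cells with h219-LLG and 9 UMIs in 732 with control. Its partner chain Itgav had a clear difference, 143 CPM (104 UMIs) with h219-LLG and 455 CPM (569 UMIs) with control, a ratio of 0.314 (0.252 to 0.388). In effector-like cells alone the Itgav ratio was 0.364 (0.281 to 0.465). In other CD4 T cells Itgav was 21.0 CPM and 31.8 CPM. Over the gates, Itgb8 was most like Cdkn2a (r 0.868), Ccr3 (0.858) and Tff1 (0.811). Furin, which encodes a protease that cleaves the TGF-beta precursor, went the other way at 97.6 CPM with h219-LLG and 68.7 CPM with control (ratio 1.42, 1.02 to 1.97). Of the 9 genes listed for the IL-10 receptor and TGF-beta handling, 3 had ratios above 1 and 6 below it, and 1 (Itgav) was at least 2-fold lower, against 5.04% of all genes. The median of this list was -0.09 on the log2 scale, where that of all genes was 0.03. Il10ra, a chain of the IL-10 receptor, had the next lowest ratio, 0.503 (0.241 to 0.976), and Tgfbr2, a TGF-beta receptor, the second highest, 1.11.

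Gpr83 was the only member with more UMIs in Foxp3-positive cells with h219-LLG. It had 12 UMIs in 7 cells, at 3, 2, 2, 2, 1, 1 and 1 UMIs, with h219-LLG, and 7 UMIs in 5 cells, at 2, 2, 1, 1 and 1 UMIs, with control. The ratio of 16.5 CPM over 5.60 CPM was 2.95 (1.07 to 8.83), and it was 1.29 (0.372 to 5.02) in resting-like cells. In the receptor gate it was 1.06 (0.361 to 2.79), and with cells of 200 to 2500 genes and under 5% mitochondrial UMIs it was 8.04 (1.66 to 76.5), from 9 UMIs with h219-LLG and 2 with control. Of the positive cells, 5 of 7 with h219-LLG and 3 of 5 with control were resting-like. Between effector-like and resting-like cells the ratio was 0.454 (0.100 to 1.70), from 4 UMIs against 8 UMIs, with h219-LLG and 0.115 (0.0109 to 0.700), from 2 UMIs against 5 UMIs, with control. With control its level did not exceed that of other CD4 T cells, 5.60 CPM against 5.83 CPM (ratio 0.959, 0.355 to 2.24), while with h219-LLG the ratio was 3.43 (1.55 to 7.25). The genes most like Gpr83 over the gates were Trat1 (r 0.931), Izumo1r (0.929), which encodes folate receptor 4, a surface protein of Tregs, and Ccr4 (0.920).

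**Figure D4:**
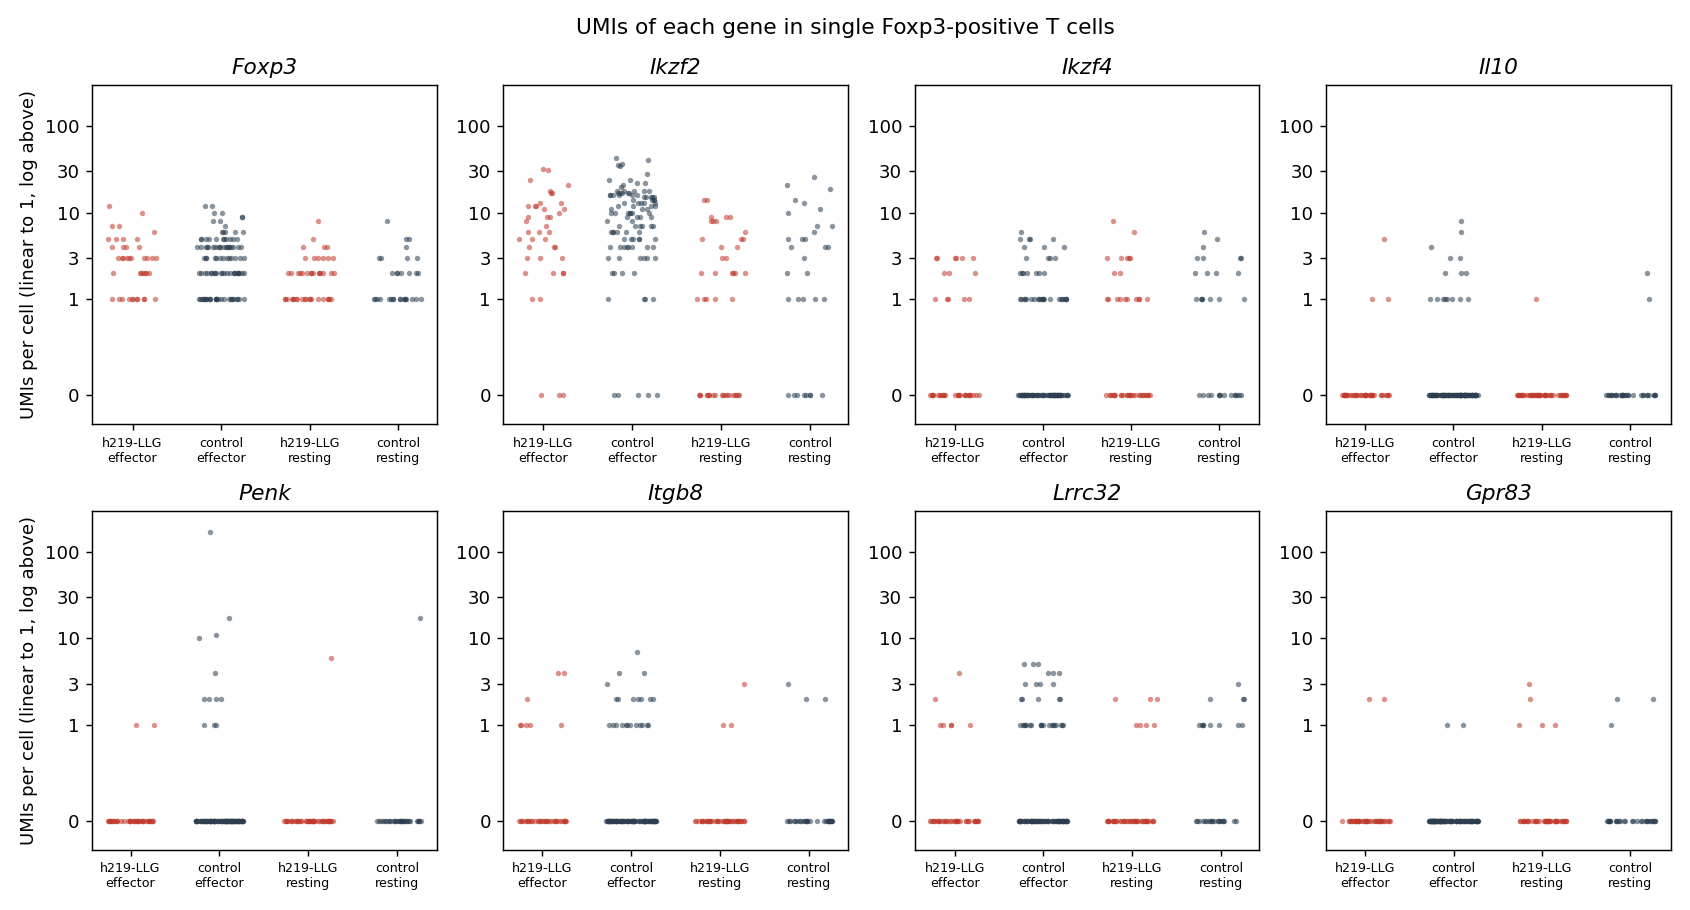
UMIs per cell (vertical axis, linear up to 1 and logarithmic above) of the 8 genes in single Foxp3-positive T cells, split by state and library, h219-LLG in red to the left of control in dark blue; each point is a cell and points are spread sideways to be seen. Cells that tie between the states, 4 with h219-LLG and 6 with control, are not drawn; Penk reaches 171 UMIs in 1 effector-like control cell and 6 UMIs in the highest h219-LLG cell.

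Most cells with one of the rarer genes also had Ikzf2, the gene detected in most cells. Every cell with Il10 or Penk among the Foxp3-positive cells also had Ikzf2, 4 of 4 and 3 of 3 cells with h219-LLG and 18 of 18 and 13 of 13 with control. For Itgb8 this held in 10 of 11 cells in the h219-LLG library and 26 of 26 in the control library, and for Lrrc32 in 15 of 16 and 46 of 47. For Gpr83 it held in 6 of 7 and 3 of 5 cells. The shares of Ikzf2 among all Foxp3-positive cells, 75.8% and 89.0%, are the level to read these against, and deeper cells hold UMIs of more genes. Il10 and Penk were together in 1 cell with h219-LLG and in 3 cells with control. Lrrc32 was found in 1 of 11 cells with Itgb8 and 0 of 4 cells with Il10 in the h219-LLG library, and in 14 of 26 and 9 of 18 in the control library. At least 3 of the 7 genes beside Foxp3 were detected in 17 of 91 cells (18.7%) with h219-LLG and in 50 of 145 (34.5%) with control. Among other CD4 T cells this was 5 of 803 (0.623%) with h219-LLG and 12 of 732 (1.64%) with control. The greater depth of the control library moves in the same direction as these counts, and its part in the result was not tested.

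Effector-like CD4 T cells with no Foxp3 UMI were compared next. They are not shown to lack Foxp3, since only 55.2% of the Foxp3-positive cells with h219-LLG and 58.0% with control kept a Foxp3 UMI when thinned to 2000 UMIs. With control, effector-like Foxp3-positive cells exceeded effector-like other CD4 T cells 3.45-fold (2.90 to 4.12) for Ikzf2, 18.9-fold (7.98 to 58.8) for Penk, 7.17-fold (2.68 to 27.1) for Lrrc32 and 3.09-fold (1.31 to 8.88) for Itgb8. Of the 224 Penk UMIs in these Foxp3-positive cells, 171 were in 1 cell. For Ikzf4 the ratio was 1.65 (1.02 to 2.77) and for Il10 2.00 (0.921 to 4.97). Of the 6 other members measured there, 5 were at least 2-fold higher, against 9.54% of all genes. Penk (224 UMIs against 5), Lrrc32 (68 against 4), Itgb8 (44 against 6) and Il10 (38 against 8) passed the minimum through the Foxp3-positive side. This count is therefore a description, and the Il10 interval includes 1. With h219-LLG, Ikzf2 exceeded them 4.26-fold (3.21 to 5.75), and each of the other 6 had at most 2 UMIs in the 46 effector-like other CD4 T cells. Both members measured there with h219-LLG, Ikzf2 and Ikzf4, were at least 2-fold higher, against 8.38% of all genes. Ikzf4 passed the minimum through the Foxp3-positive side, with 29 UMIs against 2. None was 2-fold lower in either library, against 5.03% of genes with h219-LLG and 2.92% with control. Among resting-like cells the excess of Ikzf2 was 14.9-fold (11.5 to 19.4) with h219-LLG and 16.4-fold (13.2 to 20.3) with control. Among CD4 T cells of the receptor gate in which Foxp3 was not detected, an Ikzf2 UMI was found in 18 of 58 (31.0%) with h219-LLG and 40 of 106 (37.7%) with control.

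Other genes of the Treg program were mostly lower with h219-LLG as well. In a list of 18 surface and effector genes, 18 were measured in Foxp3-positive cells, 0 with a ratio above 1 and 18 below it, 5 of them at least 2-fold lower against 5.04% of all genes, at a median of -0.60 on the log2 scale. The lowest were Fgl2, a secreted suppressor, with 50.8 CPM with h219-LLG and 171 CPM with control (ratio 0.297, 0.204 to 0.423), and Cd83 at 39.9 CPM and 115 CPM (ratio 0.346, 0.224 to 0.519). The highest were Il2ra, the IL-2 receptor alpha chain, at 0.967 (0.788 to 1.18) and Izumo1r at 0.939 (0.763 to 1.15). Over other CD4 T cells, 15 of 15 measured genes of this list were at least 2-fold higher with h219-LLG, against 13.2% of all genes, and 18 of 18 with control, against 15.1%. The largest such ratios were Il2ra (32.1) and Tnfrsf4 (16.9) with h219-LLG and Lag3 (32.4) and Tnfrsf9 (25.6) with control, and the smallest Icos (2.57) and Nt5e (3.10) with h219-LLG and Icos (2.23) and Izumo1r (3.41) with control. In effector-like cells the list had 4 ratios above 1 and 14 below it, 3 of them at least 2-fold lower against 6.72% of all genes, at a median of -0.54. The list shares Tnfrsf9, Icos and Tnfrsf4 with the panel that sets the states. Genes of the receptor gate were mostly lower with h219-LLG in other CD4 T cells too. There Il2ra was 6.55 CPM with h219-LLG and 20.5 CPM with control, and Tnfrsf4 31.0 and 65.6 CPM. Ctla4 was 99.5 and 135 CPM, Icos 126 and 167 CPM, and Tigit had 3 and 8 UMIs. Tnfrsf18 went the other way at 69.4 and 66.2 CPM.

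Of 13 measured genes of non-lymphoid tissue Tregs, 1 had a ratio above 1 and 12 below it, at a median of -0.39. At least 2-fold higher was 1 gene, against 4.69% of all genes, and at least 2-fold lower were 2, against 5.04%. Klrg1, a receptor of terminally differentiated cells, was 31.6 CPM with h219-LLG and 103 CPM with control (ratio 0.307, 0.188 to 0.480), and Rora, a nuclear receptor, was 219.9 CPM and 584 CPM (ratio 0.377, 0.316 to 0.448). Ccr4, a chemokine receptor, was the exception at 55.0 CPM with h219-LLG and 24.0 CPM with control (ratio 2.29, 1.39 to 3.81), and the next was Nfil3 at 0.952. Over other CD4 T cells, Klrg1 (29.0-fold and 73.2-fold) and Itgae (15.3-fold and 26.9-fold) had the largest ratios of this list with h219-LLG and control, Prdm1 (1.20) and Batf (1.54) the smallest with h219-LLG, and Irf4 (0.830) and Batf (1.15) with control. In effector-like cells the tissue list had 2 ratios above 1 and 11 below it, at a median of -0.23. Over all Foxp3-positive cells the resting and conventional T cell list ran the other way, with 8 of 11 ratios above 1 and a median of 0.35. In it 2 genes were at least 2-fold higher, against 4.69% of all genes, and none as much lower, against 5.04%. Dapl1 was 55.0 CPM with h219-LLG and 22.4 CPM with control (ratio 2.46, 1.48 to 4.13), and Igfbp4, which encodes an insulin-like growth factor binding protein, had a ratio of 2.03 (1.19 to 3.48). The lowest were Il7r, the IL-7 receptor, at 0.560 (0.480 to 0.651) and Ifng at 0.836 (0.448 to 1.51). In effector-like cells this list had 4 ratios above 1 and 6 below it, at a median of -0.30. Igfbp4 and Dapl1 were the lowest of the list against other CD4 T cells, at 0.160 and 0.240 with h219-LLG and 0.129 and 0.173 with control. Ccr7, Lef1 and Tcf7 are also in the panel of the resting state.

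Dissociation and stress genes were looked at beside these results. Hspa1a was 8.25 CPM with h219-LLG and 161 CPM with control in Foxp3-positive cells (ratio 0.0513, 0.0186 to 0.114), and Hspa1b 22.0 CPM and 84.7 CPM (ratio 0.259, 0.143 to 0.441). The other 5 of 7 stress genes lay between 0.843 (Junb) and 1.23 (Egr1). Their part in the differences between the libraries was not tested. With 1 library per treatment, treatment and library cannot be told apart, and a lower sum of a gene in a gate does not separate fewer expressing cells from less RNA in each, except where the counts of cells are given above.

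**Figure D5:**
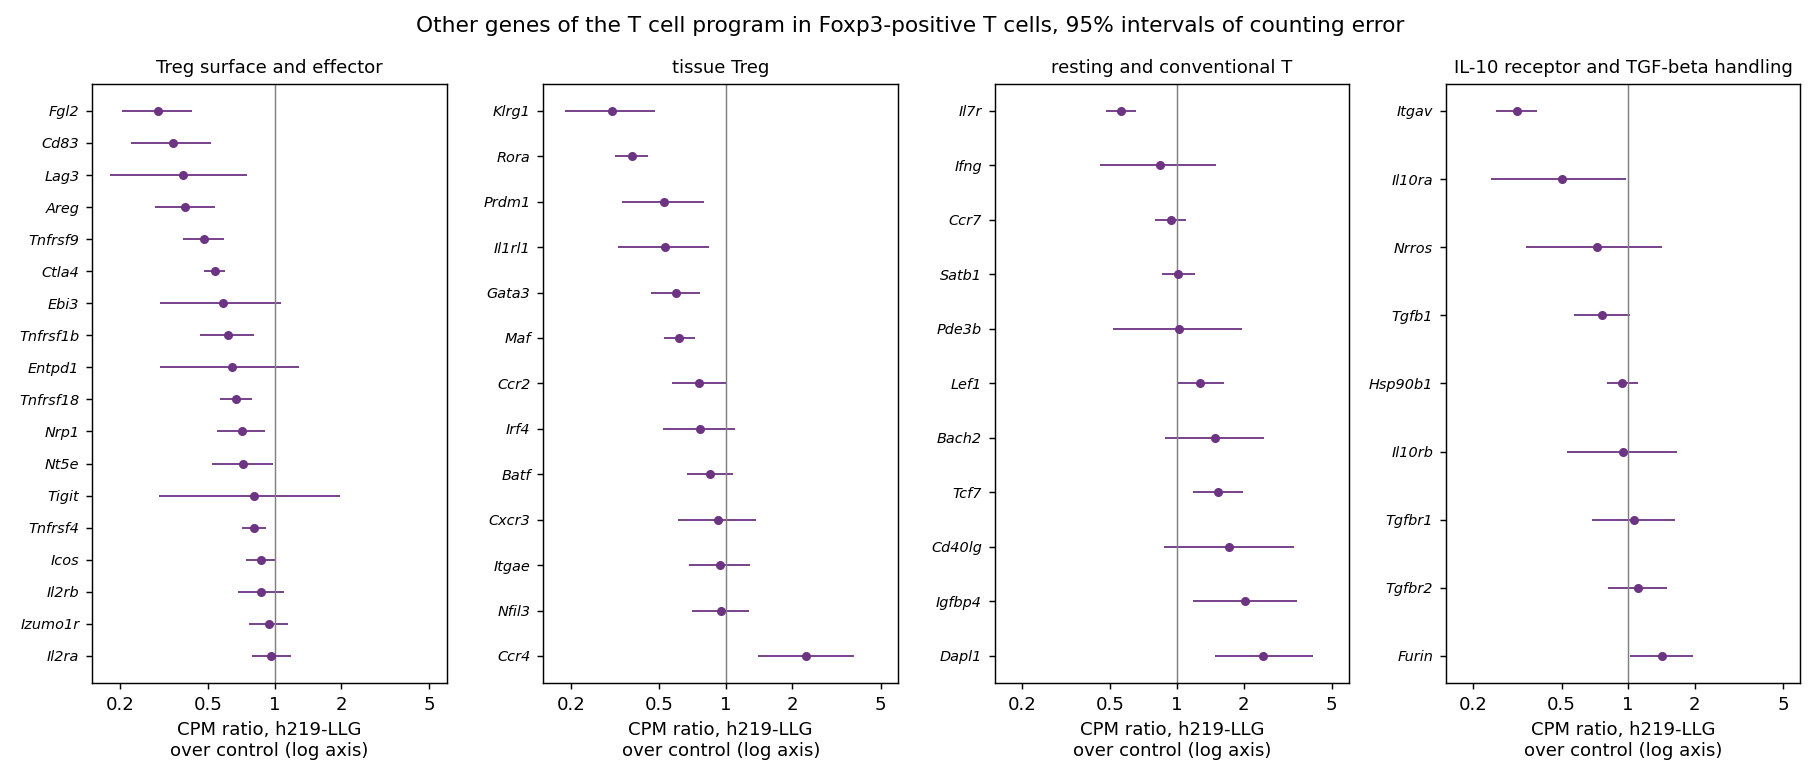
CPM of h219-LLG divided by CPM of control (horizontal, log axis) in Foxp3-positive T cells for the measured genes (vertical) of 4 lists, with 95% intervals of counting error; each point compares 1 library with 1 library. All 18 surface and effector genes lie below 1, and 8 of 11 resting and conventional T cell genes lie above 1.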

How the data were processed

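The 2 libraries were assigned to treatments by the deposited sample titles. The values deposited are unnormalized UMI counts for every gene in every barcode; for them the submitters' processing notes list Cell Ranger 5.0.0 and the mm10 build. The deposited files hold called cells only, and no cell annotation was used. Barcodes with at least 200 genes, 500 UMIs and under 10% mitochondrial UMIs were kept, and cells were gated by marker UMIs as the report describes. Doublets were treated by setting mixed-lineage cells apart, with no caller. A planned gate for gamma-delta T cells on Trdc was not used here, and such cells fall among the other T cells. UMIs were summed per gate and divided by the gate's sum. Ratios have an interval from the exact binomial split of the counts, shares an exact binomial one, and ratios of shares one on the log scale, all at 95%. Cells are not replicates, so no p-value was computed. Similarity was Pearson's r of log2(CPM + 1) over gates of at least 30 cells, among genes with at least 50 UMIs. By the rule for named genes, the 8 members, the 3 genes most like each, and the 2 highest and 2 lowest ratios of the context lists are named; Junb was named after its value was seen. In the resting panel, 1 gene is not reported here, and it was left out of the resting and conventional T cell list. The members, lists and gates were chosen with earlier results of these data known. The interval of the CPM ratio was run on simulated Poisson counts, the model it assumes, and the intervals of shares were not simulated. That run does not cover UMIs gathered in single cells, as for Penk, where the intervals are too narrow. Python 3.11.15, numpy 2.4.6, scipy 1.17.1, pandas 2.3.3 and matplotlib 3.10.9 were used. The precision is set by 727692 UMIs in the Foxp3-positive gate with h219-LLG and 1250964 with control.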

Additional observations from a re-analysis of the deposited data

How the results depend on the processing

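With 1 library per treatment no library could be left out, and no value has a test. No paired analysis was possible because each treatment has 1 library. The lower Foxp3-positive share of CD4 T cells with h219-LLG kept its direction under every alternative run, at ratios between 0.271 and 0.532, 0.532 being the value with mixed-lineage cells and Cd8-positive cells counted. It was 0.271 with cells thinned to 2000 UMIs. Over 14 settings of the h219-LLG over control ratio in Foxp3-positive cells, Ikzf2 lay between 0.597 and 0.773, Il10 between 0 and 0.381 and Penk between 0 and 0.199, all below 1 in 14 of 14. Lrrc32 was below 1 in 13 (0.242 to 1.22), Itgb8 in 12 (0.362 to 1.16), Ikzf4 in 11 (0.317 to 1.09) and Foxp3 itself in 11 of 14 (0.726 to 1.32), and Gpr83 in 0 of 14 (1.06 to 8.04). Of the 7 other members, 7 were 2-fold higher in Foxp3-positive than in other CD4 T cells with h219-LLG when no minimum of UMIs was set, and 4 were so with mixed-lineage cells kept and 4 with thinned cells. Among values whose own interval lay to one side of 1, directions turned with thinned cells of few UMIs. They were the Lrrc32 ratio at 1.22 over all Foxp3-positive cells and at 1.56 (3 and 5 UMIs) in effector-like ones, and Il10 over other CD4 T cells with h219-LLG at 0 (0 and 1 UMI). Beyond the 3 shares and counts given above that moved, 43 shares and counts did not. Of the ratios of single genes, 51 moved by more than their counting interval and 183 did not. The alternatives that leave out cells with dendritic markers or count mixed-lineage cells were chosen after seeing the data.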

Other observations

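The mixed-lineage cells, set apart as possible doublets, held a part of the Foxp3 and Il10 UMIs. They were 7.28% of kept cells with h219-LLG and 4.89% with control, and deeper than the cells of any T gate. Their Foxp3 level was 16.2 CPM with h219-LLG and 23.5 CPM with control. In the h219-LLG library they held 35.3% of all Foxp3 UMIs and 58.1% of all Il10 UMIs, and in the control library 20.9% and 35.9%. Their Ikzf2 level was 84.1 CPM with h219-LLG and 112 CPM with control (ratio 0.754, 0.675 to 0.842), whereas Il10 was 9.01 CPM and 10.0 CPM (ratio 0.900, 0.625 to 1.31). Whether these Il10 UMIs came from T cells or from other cells was not tested.

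In B cells Ikzf2 ran opposite to the T cells. It had 38 UMIs in 21 cells with h219-LLG and 14 UMIs in 10 cells with control, a ratio of 2.44 (1.29 to 4.87), and 7 of the 38 UMIs were in 1 cell. The B gate admits cells with a CD3 UMI, and these UMIs were also more frequent with h219-LLG. Cd3d was 9.64 CPM with h219-LLG and 2.68 CPM with control, Cd3g 4.27 and 1.10 CPM, and Cd3e 3.29 and 1.22 CPM. Their part in the Ikzf2 ratio and the difference between B and T cells were not tested.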
